A study of Mus musculus with 12 samples.

Results

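Expression of 7 genes that encode subunits of the GABA-A receptor (Gabra2, Gabra3, Gabra4, Gabra5, Gabrb1, Gabrb2 and Gabrd) was measured in prefrontal cortex (PFC) of Fyn-null and control mice after an injection of ethanol or saline. According to the paper, its PFC dissections take in motor cortex next to it. The members are all probe sets to which the platform annotation gives 1 of these symbols. There were 21 such probe sets of the 45037 on the array other than controls, and 17 of the 21 were above a filter that left out the 45% of probe sets with the lowest mean, against 24770 of all probe sets. All 7 genes, of 18193 with a symbol of their own on the array, had at least 1 probe set above the filter. Gabra2 had 3 of 5 above it, Gabra3 2 of 2, Gabra4 2 of 2, Gabra5 1 of 1, Gabrb1 3 of 4, Gabrb2 5 of 5 and Gabrd 1 of 2. The probe set with the highest mean over all arrays is called the leading one of its gene.

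GABA-A receptors are chloride channels assembled from several subunits and opened by GABA, the main inhibitory transmitter of the cortex. The alpha subunit sets much of a receptor's pharmacology and its place on the neuron, and the beta subunit carries part of the GABA binding site and sites at which kinases act on the channel. Receptors with the delta subunit lie mostly outside synapses, respond to low ambient GABA and to neurosteroids, and have long been studied as a site of ethanol's sedative action. Gabra2 has been linked to alcohol dependence in people, and C57BL/6J mice carry an intronic deletion in Gabra2 that lowers its mRNA.

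The animals were male mice obtained at 12 weeks of age and housed in the facility for a time before the experiments. Fyn-null mice were of the B6;129S7-Fyntm1Sor/J stock and lack the tyrosine kinase Fyn throughout the body, and control mice were of the separate B6129SF2/J stock. Both stocks mix C57BL/6 and 129 ancestry, so an effect of Fyn and a difference in stock background, at Gabra2 or elsewhere, cannot be told apart. The Gabra2 allele of these mice was not measured. After 3 days on which saline was injected for habituation, mice received 3 g/kg ethanol or saline by the intraperitoneal route, and PFC was taken 4 h later. The 4 groups were Fyn-null ethanol, Fyn-null saline, control ethanol and control saline, of 3 arrays each, every array carrying a pool from 3 mice. The paper and the sample labels differ on the number of mice used per genotype. Values are log2 signals summarised by the authors with RMA, a method that normalizes all arrays to one distribution, and levels and differences are given on that log2 scale.

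Array medians lay between 5.40 and 5.48, and correlations between arrays across probe sets between 0.982 and 0.997. The brighter Fyn probe set, 1417558_at, still gave a signal in Fyn-null mice. It read 8.64 to 9.45 over the 6 pools labelled Fyn-null and 8.74 to 9.70 over the 6 labelled control. The pool labelled Fyn-null saline replicate 4 was at 9.45, above the other Fyn-null pools (8.64 to 9.01) and among the other control pools (9.31 to 9.70). The pool labelled control saline replicate 2 was at 8.74, below the other control pools and among the other Fyn-null pools. Without these 2 pools the labelled genotypes did not overlap on this probe set. The other Fyn probe set, 1448765_at, read 7.50 to 7.81 over the pools labelled Fyn-null and 7.53 to 7.95 over those labelled control. On it the pools labelled control saline replicates 1 (7.65) and 2 (7.53) and control ethanol replicate 2 (7.80) were within the range of Fyn-null pools. In turn, every Fyn-null pool but saline replicate 3 (7.50) was within the range of control pools. Without the 2 pools set apart on 1417558_at the genotypes still overlapped, at 7.50 to 7.81 against 7.65 to 7.95. This probe set thus did not separate the labelled genotypes and could not single out pools. The position of these probe sets relative to the disrupted part of Fyn was not known here, and probes beyond it cannot check a label. Labels were kept as given, and every direction drawn from saline pools carries this doubt. Values without both saline pools in doubt on 1417558_at are given where they moved a difference by over 1.5 times or changed a call. Of the markers of cortical pyramidal neurons, 7 of 8 were above the filter. Of the striatal markers 6 of 10 were above it, and those that were not include Drd2, Adora2a and Gpr6.

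**Figure D1:**
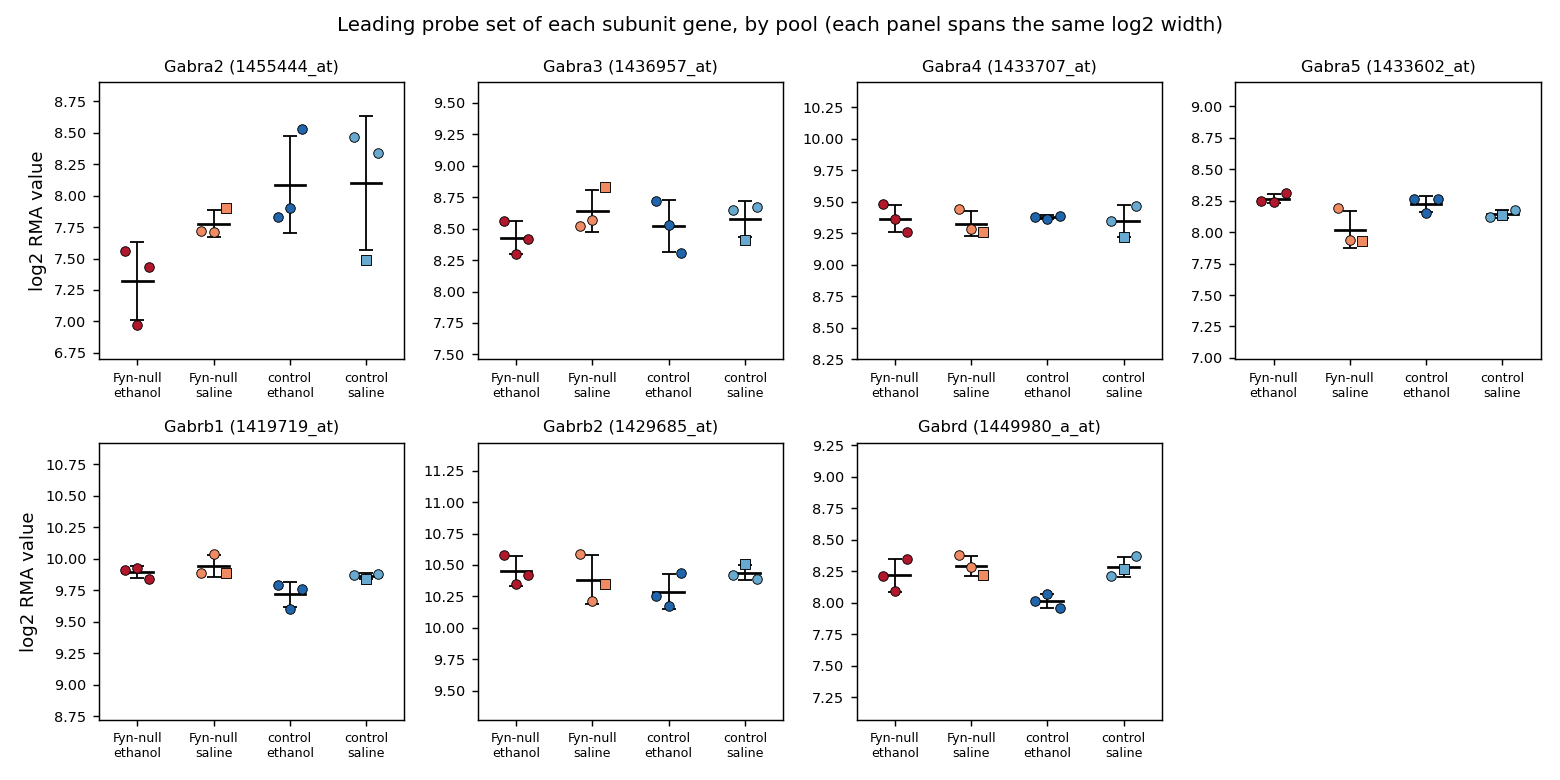
Log2 RMA value of the leading probe set of each of the 7 subunit genes (y axis) in the 4 groups (x axis). Points are pools of 3 mice, squares mark the pools labelled Fyn-null saline replicate 4 and control saline replicate 2, and bars are mean ± SD (n = 3 pools). Gabra2 spreads over 1.55 log2 units, the widest of the 7 panels, and Gabra4 over 0.26.

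Each of the 17 probe sets was tested with limma, with p-values adjusted by the Benjamini-Hochberg method over all 24770 probe sets, and was called at an adjusted p under 0.05. In Fyn-null mice 1 of the 17 was called for ethanol against saline, a Gabrb2 probe set, against 0.400% of all probe sets tested. In control mice none was called, against 1.43% of all. Over both genotypes the same Gabrb2 probe set was called, 1 of 17 against 6.81% of all, so the subunits were not called more often than other genes there. For Fyn-null against control, no subunit was called after ethanol, after saline or over both treatments, and no probe set on the array was (0%, 0% and 0%). The difference of the ethanol responses of the genotypes was called for no subunit and for no other probe set (0%). At an unadjusted p under 0.05, Fyn-null against control after ethanol had 8 of the 17 subunit probe sets, against 13.6% of all probe sets, and over both treatments it had 7, against 11.1%. For the ethanol comparisons the subunits had 4 in Fyn-null mice, against 11.7% of all, and 3 in control mice, against 18.9% of all. After saline Fyn-null against control had 2 of 17, against 1.89%, and the difference of the responses had 2, against 4.13%.

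The median size of a difference between Fyn-null and control mice after ethanol was 0.20 over the subunit probe sets and 0.10 over all probe sets, without regard to sign. After saline it was 0.16 over the subunits and 0.066 over all. For ethanol against saline the median size was 0.079 over the subunits in Fyn-null mice, against 0.096 over all, and 0.15 in control mice, against 0.13 over all. The 17 probe sets come from 7 genes and those of 1 gene share transcripts, so these counts and medians are not independent votes. The genes were also chosen with earlier results of these data known. Counts or medians above those of the array can follow from that choice.

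**Figure D2:**
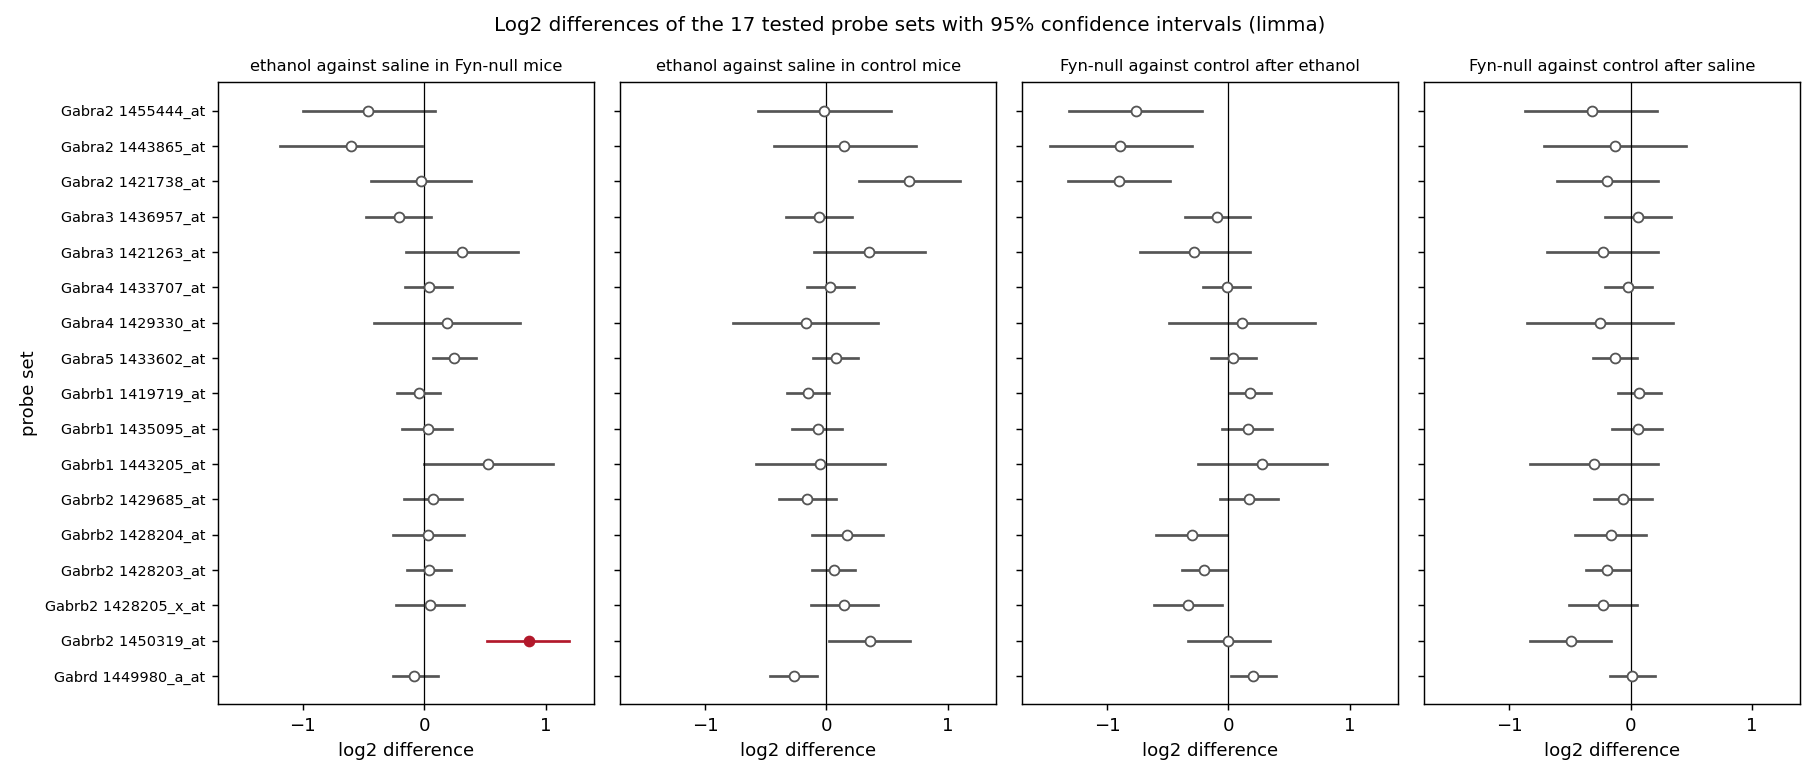
Log2 difference (x axis) of each of the 17 tested probe sets (rows) in the 4 comparisons between groups of 3 pools, with 95% confidence intervals from limma, and with called probe sets filled in red. Only Gabrb2 1450319_at for ethanol against saline in Fyn-null mice, at 0.86, was called, and the 3 Gabra2 probe sets lie left of 0 for Fyn-null against control after ethanol.

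Gabra2 encodes the alpha2 subunit, found in forebrain synapses and on the axon initial segment of pyramidal cells. Its promoter is shown because this gene had the largest differences between the stocks among the 7 genes after ethanol and over both treatments, though not after saline. The stretch of 250 bases before the RefSeq transcript start lies at chr5:71095850-71096099 of GRCm38.p6 on the minus strand. Capitals mark the GC box (GGGCGG, a site of Sp1 family factors), found on either strand.
Gabra2: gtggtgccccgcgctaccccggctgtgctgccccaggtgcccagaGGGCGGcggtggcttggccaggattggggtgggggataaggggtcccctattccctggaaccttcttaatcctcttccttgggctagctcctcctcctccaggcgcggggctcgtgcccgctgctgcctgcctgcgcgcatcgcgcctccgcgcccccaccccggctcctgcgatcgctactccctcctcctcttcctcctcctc
The window was 70% G and C and held 1 GC box, a motif present in 32.7% of the 32851 promoters of the same length in the table. It held no TATA box (TATAAA, in 12.4% of promoters), no E-box (CACGTG, in 6.02%) and no cAMP response element (TGACGTCA, in 1.55%). Both strands were searched, and no matches overlapped.

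Gabra2 was lower in Fyn-null than in control pools after ethanol on each of its 3 tested probe sets, with no overlap, although none was called. The leading probe set, 1455444_at, read 7.56, 6.97 and 7.43 in Fyn-null ethanol pools, against 7.83, 7.90 and 8.53 in control ethanol pools. The difference was -0.76 (SE 0.25, adjusted p = 0.217), which is a ratio of 0.589. The second probe set, 1443865_at, read 6.33, 6.13 and 6.14 in Fyn-null ethanol pools, against 6.51, 7.14 and 7.61 in control ethanol pools. All 3 Fyn-null pools lay below the lowest control pool, and the difference was -0.89 (SE 0.27, adjusted p = 0.195). The third, 1421738_at, read 6.44, 6.31 and 6.28 in Fyn-null ethanol pools, against 7.22, 7.35 and 7.17 in control ethanol pools. Here the groups stood farthest apart for their spread, with a difference of -0.90 (SE 0.19, adjusted p = 0.127). When only these 2 groups were fitted, 1421738_at passed the test (-0.90, SE 0.091, adjusted p = 0.00549), and with array weights all 3 probe sets did (adjusted p = 0.00437 to 0.0405), although the default estimate of these weights stopped before it converged. With weights estimated gene by gene, a method chosen after those calls had been seen, 1421738_at (-0.95, adjusted p = 0.0183) and 1443865_at (-0.90, adjusted p = 0.044) passed and 1455444_at did not (-0.63, adjusted p = 0.0898). Leaving out the control saline replicate 1 pool, which takes part only through the shared estimate of spread, also brought 1421738_at past the test (adjusted p = 0.0431), as did leaving out both saline pools in doubt (adjusted p = 0.0247). Both array weights, the fit of only these groups and the fit without both pools in doubt called many other probe sets too, where the main fit called none. Their counts are in the closing section, so passing there was not particular to Gabra2.

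After saline the 3 Gabra2 probe sets overlapped between genotypes. The leading probe set read 7.72, 7.71 and 7.90 in Fyn-null saline replicates 2, 3 and 4, against 8.47, 7.49 and 8.34 in control saline replicates 1, 2 and 3. The control pool at 7.49 is the one labelled replicate 2 whose Fyn signal was low, and the Fyn-null pool at 7.90 is the one labelled replicate 4 whose Fyn signal was high. The differences were -0.32 (SE 0.25), -0.13 (SE 0.27) and -0.19 (SE 0.19) for 1455444_at, 1443865_at and 1421738_at, with adjusted p = 1 in each. For 1443865_at the control saline pools spread over 7.39, 6.33 and 7.07, and for 1421738_at over 7.10, 6.20 and 6.38, so in each the pool labelled control saline replicate 2 was the lowest. Without both pools in doubt the differences after saline were -0.69 (adjusted p = 0.467), -0.37 (adjusted p = 0.796) and -0.51 (adjusted p = 0.549) for 1455444_at, 1443865_at and 1421738_at. Without control saline replicate 2 alone they were -0.63, -0.43 and -0.37. Without control saline replicate 1 the first was -0.14, and the sign turned for 1443865_at (0.10) and for 1421738_at (0.08), so the size after saline rested on single control pools.

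Over both treatments the Gabra2 differences between Fyn-null and control mice were -0.54 (SE 0.18, adjusted p = 0.343) for 1455444_at, -0.51 (SE 0.21, adjusted p = 0.412) for 1443865_at and -0.55 (SE 0.16, adjusted p = 0.334) for 1421738_at. Without both saline pools in doubt, 1455444_at was at -0.73 (SE 0.14, adjusted p = 0.0179) and 1421738_at at -0.74 (SE 0.13, adjusted p = 0.00961), and both were then called. Leaving out pools because they stood with the other genotype favours such calls by itself. With the pool labelled control saline replicate 2 alone left out, 1455444_at was called at -0.70 (adjusted p = 0.0426). The mean level of pyramidal neuron markers also differed between these groups, though not every marker in the same direction. Their mean over 7 genes was 8.93 to 9.14 in Fyn-null ethanol pools, against 9.24 to 9.48 in control ethanol pools. After ethanol 5 of the 7 were below 0 and 2 above it. At an unadjusted p under 0.05 there were 4 of the 7, against 13.6% of all probe sets, with 0 called. After saline, where Gabra2 overlapped, their mean was 9.20 to 9.21 in Fyn-null pools, against 9.22 to 9.48 in control pools, with all 7 genes below 0 and 0 called. Their part in the Gabra2 result was not tested, and in bulk tissue fewer cells of a type and less RNA per cell cannot be told apart.

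**Figure D3:**
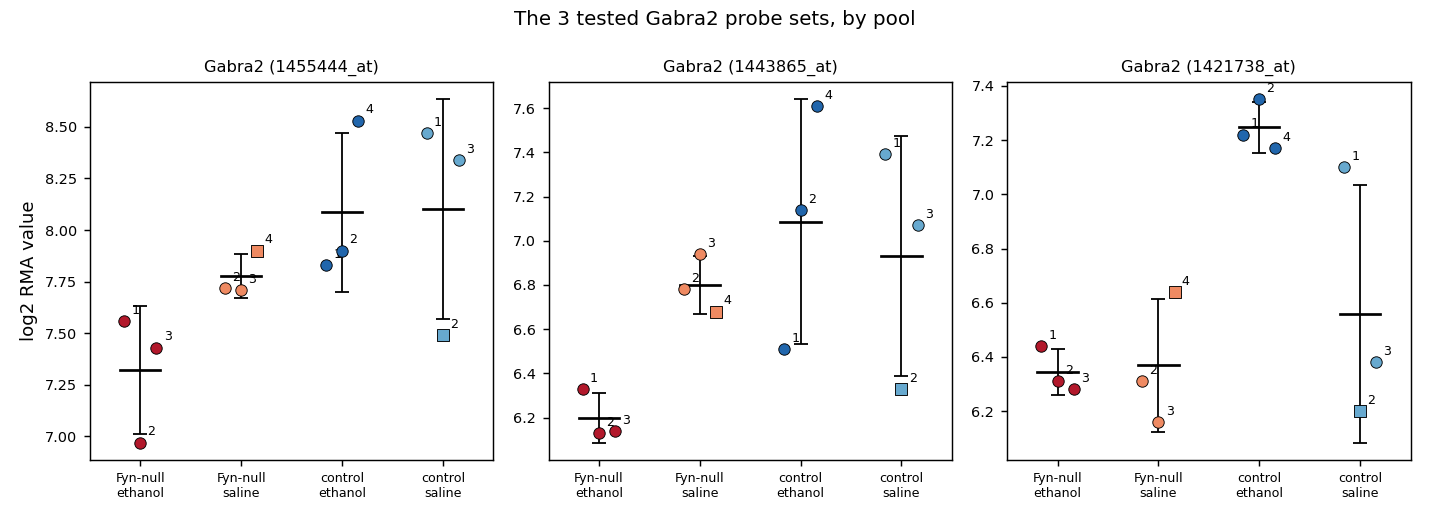
Log2 RMA value (y axis, own scale per panel) of the 3 tested Gabra2 probe sets in the 4 groups (x axis), by pool with its replicate number. Squares are the pools labelled Fyn-null saline replicate 4 and control saline replicate 2, and bars are mean ± SD (n = 3 pools). On 1421738_at the Fyn-null ethanol pools are at 6.28 to 6.44 and the control ethanol pools at 7.17 to 7.35.

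The ethanol response of Gabra2 was not called in either genotype, and its 3 tested probe sets did not all move together. In Fyn-null mice the leading probe set had no overlap between ethanol pools (6.97 to 7.56) and saline pools (7.71 to 7.90), and neither had 1443865_at (6.13 to 6.33 after ethanol and 6.68 to 6.94 after saline, difference -0.60, SE 0.27, adjusted p = 0.415). In control mice 1421738_at was at 7.17 to 7.35 after ethanol and at 6.20 to 7.10 after saline, a difference of 0.68 (SE 0.19, adjusted p = 0.0953). This value rests in part on the control saline replicate 1 pool, without which it was 0.95 (adjusted p = 0.0179). The responses of the genotypes on 1421738_at differed by -0.71 (SE 0.27, adjusted p = 0.992), and without both pools in doubt by -0.39 (adjusted p = 0.935). The 2 Gabra2 probe sets below the filter, 1449807_x_at and 1420299_at, were not tested. Of these, 1449807_x_at read 3.51 to 3.81 in Fyn-null ethanol pools and 3.94 to 4.21 in control ethanol pools, and 1420299_at was between 2.38 and 2.83 in all 12 pools. Over the 12 pools 1455444_at and 1443865_at followed each other closely (Pearson's r = 0.90), and each had r = 0.58 with 1421738_at.

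Gabra3 encodes the alpha3 subunit, which in cortex is found mostly in deep layers. Its leading probe set, 1436957_at, averaged 8.43 ± 0.128 in Fyn-null ethanol, 8.64 ± 0.166 in Fyn-null saline, 8.52 ± 0.206 in control ethanol and 8.58 ± 0.142 in control saline pools (SD, n = 3 each). All 4 comparisons between these groups overlapped. The second probe set, 1421263_at, read 6.11, 6.42 and 5.97 in Fyn-null ethanol pools, against 5.88, 6.04 and 5.66 in Fyn-null saline pools. Control pools read 6.68, 6.36 and 6.29 after ethanol, against 6.64, 5.93 and 5.70 after saline. Over both genotypes the ethanol difference on 1421263_at was 0.33 (SE 0.14, adjusted p = 0.176), and without control saline replicate 1 it was 0.45 (adjusted p = 0.0433). With the log2 difference between the Gapdh control probe sets at the 3' and 5' ends as a covariate, a measure of RNA quality given with Gabrb2, it was -0.04 (adjusted p = 0.96). The leading probe set did not share it, and the 2 probe sets had r = -0.16 over the 12 pools.

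Gabra4 encodes the alpha4 subunit, which pairs with delta in receptors outside synapses. Its leading probe set, 1433707_at, was the flattest of the 17. It lay between 9.22 and 9.48 in all 12 pools and averaged 9.36 ± 0.113 in Fyn-null ethanol, 9.33 ± 0.1 in Fyn-null saline, 9.38 ± 0.0145 in control ethanol and 9.34 ± 0.125 in control saline pools (SD, n = 3 each). The 95% interval of its ethanol difference over both genotypes ran from -0.10 to 0.17, and that of Fyn-null against control over both treatments from -0.15 to 0.12. The other probe set, 1429330_at, spread much more, with Fyn-null saline pools at 8.44, 7.53 and 9.04 and the other 9 pools at 8.20 to 8.70. Its standard error of 0.28 was the largest of the 17, and it followed the leading probe set with r = 0.04.

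Gabra5 encodes the alpha5 subunit of receptors that lie mostly outside synapses and carry tonic inhibition. Its probe set 1433602_at read 8.25, 8.24 and 8.31 in Fyn-null ethanol pools, against 8.19, 7.94 and 7.93 in Fyn-null saline pools. These groups did not overlap, and the difference was 0.25 (SE 0.084, adjusted p = 0.275). With array weights it was 0.28 and called (adjusted p = 0.0179 by the default estimate and 0.0363 gene by gene). Control pools read 8.26, 8.15 and 8.26 after ethanol and 8.12, 8.14 and 8.18 after saline, and these groups overlapped. Over both genotypes the difference was 0.16 (SE 0.062, adjusted p = 0.124).

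Gabrb1 encodes the beta1 subunit. The Gabrb1 and Gabra4 genes are neighbours that start close together on opposite strands, and Gabrg1 and Gabra2 lie next to them. The leading probe set, 1419719_at, read 9.91, 9.93 and 9.84 in Fyn-null ethanol pools, against 9.79, 9.60 and 9.76 in control ethanol pools. After saline it read 9.89, 10.04 and 9.89 in Fyn-null pools, against 9.87, 9.84 and 9.88 in control pools. In both treatments all Fyn-null pools were above all control pools, although after saline the nearest pools differed by very little. The difference over both treatments was 0.13 (SE 0.055, adjusted p = 0.437). The second probe set, 1435095_at, lay between 8.96 and 9.32 in all pools, with 95% intervals from -0.03 to 0.25 for Fyn-null against control over both treatments and from -0.16 to 0.12 for ethanol against saline over both genotypes. The third, 1443205_at, read 8.99, 8.52 and 8.71 in Fyn-null ethanol pools, against 8.49, 7.73 and 8.39 in Fyn-null saline pools, a difference of 0.53 (SE 0.24, adjusted p = 0.423). Without Fyn-null saline replicate 3, the pool at 7.73, it was 0.30 (adjusted p = 0.857), with the Gapdh covariate 0.92 (adjusted p = 0.239), and with the default array weights 0.62 and called (adjusted p = 0.0422). In control mice its groups overlapped, with saline pools at 8.26 to 8.89. The Gabrb1 probe set below the filter, 1443834_at, was between 2.49 and 2.85.

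Gabrb2 encodes the beta2 subunit, which together with alpha1 and gamma2 makes up the most common receptor of the brain. RefSeq lists 3 transcript starts, and the 250 bases before the first of them, at chr11:42420190-42420439 of GRCm38.p6 on the plus strand, are shown because this gene held the subunits' call. Capitals mark a GC box and a TATA box, found on either strand.
Gabrb2: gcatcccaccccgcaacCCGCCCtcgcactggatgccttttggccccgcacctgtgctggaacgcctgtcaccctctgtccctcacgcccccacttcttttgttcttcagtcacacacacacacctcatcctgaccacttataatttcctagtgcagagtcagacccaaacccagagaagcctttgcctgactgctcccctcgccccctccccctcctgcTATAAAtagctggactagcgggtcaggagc
This window held 1 GC box (in 32.7% of promoters) and 1 TATA box (in 12.4%), and it was 58.8% G and C. The windows before the other starts held none of the 4 motifs searched.

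One Gabrb2 probe set, 1450319_at, was higher after ethanol than after saline. In Fyn-null mice it read 6.74, 6.99 and 6.54 in ethanol pools, against 6.03, 5.73 and 5.94 in saline pools. All ethanol pools were above all saline pools, and the difference was 0.86 (SE 0.15, adjusted p = 0.0368), a ratio of 1.81. In control mice it read 6.70, 6.67 and 6.89 in ethanol pools, against 6.68, 6.43 and 6.07 in saline pools, which overlapped (0.36, SE 0.15, adjusted p = 0.235). Over both genotypes it rose by 0.61 (SE 0.12, adjusted p = 0.0143), a ratio of 1.52. The responses of the genotypes differed by 0.50 (SE 0.22, adjusted p = 0.992), so a larger response in Fyn-null mice was not shown. After saline the Fyn-null pools were all below the control pools (-0.49, SE 0.15, adjusted p = 1), and after ethanol the groups overlapped.

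The call in Fyn-null mice was close to the threshold. Without both saline pools in doubt the difference was 0.88 (adjusted p = 0.109). It also missed the test without any 1 of the 6 Fyn-null pools, at 0.74 to 0.96, the adjusted p being 0.111, 0.146 and 0.0721 without ethanol replicates 1, 2 and 3, and 0.0628, 0.172 and 0.0804 without saline replicates 2, 3 and 4. It missed it too without control ethanol replicate 2 (adjusted p = 0.0642) or control saline replicate 2 (adjusted p = 0.0571). Over both genotypes the call held without each pool in turn and without both pools in doubt (0.63, adjusted p = 0.0319).

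A measure of RNA quality moved with this probe set. The log2 difference between the Gapdh control probe sets at the 3' and 5' ends of the transcript was 0.10, 0.01 and 0.08 in Fyn-null ethanol pools, against 0.21, 0.28 and 0.33 in Fyn-null saline pools. In control mice it was 0.09, 0.06 and -0.05 after ethanol, against 0.11, 0.22 and 0.53 after saline. In both genotypes every ethanol pool was below every saline pool. With this difference as a covariate, chosen after the data were seen, the ethanol difference of 1450319_at was 0.55 in Fyn-null mice (adjusted p = 0.177), -0.0032 in control mice and 0.31 over both genotypes (SE 0.16, adjusted p = 0.464). It was then called in none of these. Treatments do not overlap on the Gapdh measure within a genotype, so their parts in the result cannot be told apart. The same difference between actin control probe sets was 0.76 to 1.15 in Fyn-null ethanol pools, against 1.31 to 1.41 in Fyn-null saline pools. In control mice it was 0.71 to 1.01 after ethanol, against 0.98 to 1.45 after saline, which overlapped. The actin measure was not used as a covariate.

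**Figure D4:**
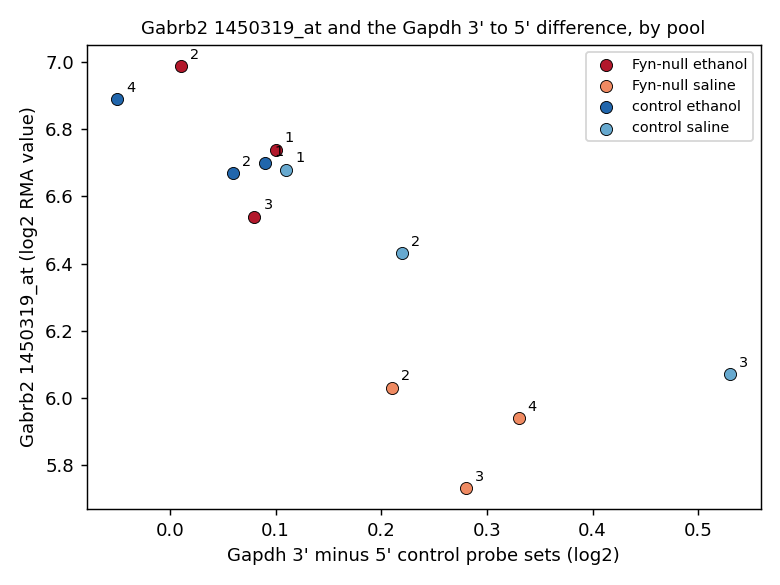
Log2 RMA value of Gabrb2 1450319_at (y axis) against the log2 difference of the 3' and 5' Gapdh control probe sets (x axis) in the 12 pools, coloured by group with replicate numbers. The ethanol pools, at -0.05 to 0.10 on the x axis, lie between 6.54 and 6.99, and the saline pools, at 0.11 to 0.53, between 5.73 and 6.68.

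The other 4 Gabrb2 probe sets did not share the ethanol response. The leading probe set, 1429685_at, read 10.58, 10.35 and 10.42 in Fyn-null ethanol pools, against 10.59, 10.21 and 10.35 in Fyn-null saline pools, and the groups overlapped. In control mice it was at 10.17 to 10.44 after ethanol and at 10.39 to 10.51 after saline. The 95% interval of its ethanol difference over both genotypes ran from -0.22 to 0.13. For 1428203_at, 1428204_at and 1428205_x_at, which were designed from the same sequence record, the intervals ran from -0.07 to 0.17, -0.10 to 0.31 and -0.09 to 0.29. These 3 were lower in Fyn-null than in control pools after ethanol with no overlap. They read 9.77 to 9.81 (1428203_at), 9.69 to 9.95 (1428204_at) and 9.41 to 9.65 (1428205_x_at) in Fyn-null ethanol pools. In control ethanol pools the same probe sets read 9.98 to 10.00, 10.03 to 10.20 and 9.77 to 9.90. Over both treatments the differences were -0.19 (SE 0.056, adjusted p = 0.33), -0.23 (SE 0.094, adjusted p = 0.393) and -0.28 (SE 0.089, adjusted p = 0.336), so none was called. The leading probe set did not share this, with an interval from -0.12 to 0.23. Since 1428204_at and 1428205_x_at had r = 0.98 over the 12 pools, they give nearly 1 measurement.

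**Figure D5:**
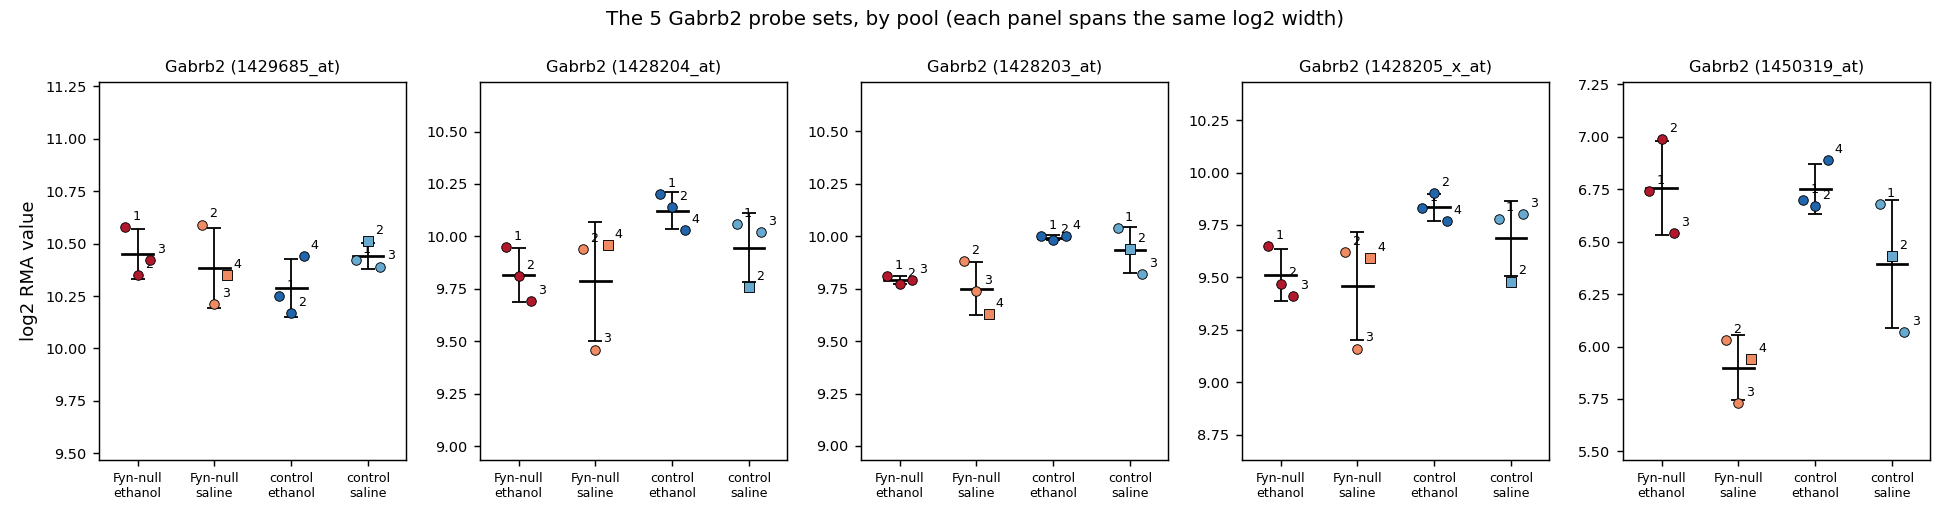
Log2 RMA value (y axis, each panel of the same width) of the 5 Gabrb2 probe sets in the 4 groups (x axis), by pool with its replicate number. Squares are the pools labelled Fyn-null saline replicate 4 and control saline replicate 2, and bars are mean ± SD (n = 3 pools). Only in the last panel, 1450319_at, do the Fyn-null ethanol pools (6.54 to 6.99) stand clear of the Fyn-null saline pools (5.73 to 6.03).

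Gabrd encodes the delta subunit, the defining part of a class of extrasynaptic receptors. Its tested probe set, 1449980_a_at, read 8.01, 8.07 and 7.96 in control ethanol pools, against 8.21, 8.27 and 8.37 in control saline pools. The groups did not overlap, and the difference was -0.27 (SE 0.086, adjusted p = 0.127). In Fyn-null mice it read 8.21, 8.09 and 8.35 after ethanol, against 8.38, 8.28 and 8.22 after saline, which overlapped. Over both genotypes the difference was -0.17 (SE 0.064, adjusted p = 0.113), and with the Gapdh covariate -0.09 (adjusted p = 0.748). After ethanol all Fyn-null pools were above all control pools (0.20, SE 0.086, adjusted p = 0.321). The other probe set, 1457763_at, was below the filter at 3.87 to 4.43.

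Counts of subunit probe sets whose groups did not overlap can be set against the whole array. For ethanol against saline in Fyn-null mice, 3 of 17 were higher without overlap, against 8.28% of all probe sets (Gabra5, Gabrb1 1443205_at and Gabrb2 1450319_at), and 2 were lower, against 9.81% (both Gabra2). In control mice 1 was higher, against 6.77% (Gabra2 1421738_at), and 2 were lower, against 16.3% (Gabrb1 1419719_at and Gabrd). For Fyn-null against control after ethanol, 2 were higher, against 13.8% (Gabrb1 1419719_at and Gabrd), and 6 were lower, against 6.51% (3 of Gabra2 and 3 of Gabrb2). After saline 1 was higher, against 2.94% (Gabrb1 1419719_at), and 1 was lower, against 2.22% (Gabrb2 1450319_at). The 6 lower after ethanol come from 2 genes and were a larger share than that of the array. The members were chosen with earlier results of these data known, so this larger share can follow from the choice.

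Probe sets of 1 gene did not always follow each other over the 12 pools. Pearson's r ranged from -0.24 to 0.98 over the 18 pairs of the same gene, with a median of 0.40, and from -0.75 to 0.79 over the 118 pairs of different genes, with a median of 0.13. As a description over these pools, which share arrays and groups, the genes with the pattern most like each leading probe set were named among 12322 others. For Gabra2 they were Rmnd1 (r = 0.905), Rad23b (0.903) and Rnd2 (0.896), for Gabra3 Ndufaf8 and Cox17 (0.94 each) and Zc3h18 (0.931), and for Gabra4 Plppr4 (0.913), Tnks (0.882) and Map7 (0.876). For Gabra5 they were Prss23 (0.911), Ripply2 (0.903) and Srsf12 (0.896), for Gabrb1 Nav1 and Nadk (0.943 each) and Timm10 (0.92), for Gabrb2 Gpbp1l1 (0.892), Nim1k (0.888) and Slc47a1 (0.878), and for Gabrd Tdrd3 (0.977), Brms1l (0.935) and Grid1 (0.93). No other subunit was among them.

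Of the other subunits of the receptor, 14 probe sets were named on the array and 3 were above the filter. The gamma subunits link receptors to the synapse. Gabrg3 1445846_at read 6.09, 6.39 and 6.21 in Fyn-null ethanol pools, against 5.83, 6.00 and 5.97 in Fyn-null saline pools. Control pools read 6.34, 6.24 and 6.11 after ethanol, against 5.98, 6.03 and 5.56 after saline. All ethanol pools were above all saline pools, and over both genotypes it rose by 0.34 (SE 0.086, adjusted p = 0.0348). The call was lost with the Gapdh difference as a covariate (0.15, adjusted p = 0.628), with the replicate block (0.32, adjusted p = 0.101), with no filter (0.34, adjusted p = 0.0528) and without any 1 of 7 of the 12 pools (0.27 to 0.36, adjusted p = 0.0534 to 0.0867). The second Gabrg3 probe set above the filter, 1439717_at, overlapped between treatments at 5.70 to 6.14 over all pools. Gabrg1 1460408_at lay between 6.61 and 6.99, with a 95% interval of the ethanol difference from -0.21 to 0.11. The probe sets of Gabra6, Gabre, Gabrp, Gabrq, Gabrr1 and Gabrr2 were all below the filter.

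Genes that make, move or clear GABA, that hold the receptor in the synapse or that set its chloride gradient gave 1 call. It was for ethanol over both genotypes, where 6.69% of all genes were called. Of 7 measured genes for synthesis, transport and breakdown of GABA none was called in any comparison. Among the comparisons over both genotypes or both treatments, Gad1, which makes GABA, had the smallest p, at -0.19 for Fyn-null against control over both treatments (SE 0.06, adjusted p = 0.336), followed by the vesicular transporter Slc32a1 at -0.08 for ethanol over both genotypes (adjusted p = 0.411). None of 19 scaffold and trafficking genes was called. Plcl2, which encodes a protein that binds the beta subunits, was at -0.15 for ethanol over both genotypes (adjusted p = 0.0762), and Hap1, which moves receptors to the surface, at -0.20 for Fyn-null against control over both treatments (adjusted p = 0.364). None of 4 genes of GABA-B receptors was called. In the same pooled comparisons their smallest p-values were those of the auxiliary subunits Kctd8 (-0.23 for Fyn-null against control, adjusted p = 0.387) and Kctd12b (-0.19 for ethanol, adjusted p = 0.193). Of 3 genes of neurosteroid synthesis none was called, with Cyp11a1, the first enzyme of steroid synthesis, at 0.35 for ethanol over both genotypes (SE 0.099, adjusted p = 0.0516) and Star at 0.12 (adjusted p = 0.373).

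Of 4 genes for chloride cotransporters and their kinases, the leading probe set of Slc12a2, which encodes the chloride importer NKCC1, fell by 0.27 with ethanol over both genotypes (1417622_at, SE 0.057, adjusted p = 0.0155). It read 8.42, 8.21 and 8.31 in Fyn-null ethanol pools, against 8.65, 8.60 and 8.67 in Fyn-null saline pools. In control mice it read 8.28, 8.45 and 8.29 after ethanol, against 8.59, 8.51 and 8.56 after saline, so ethanol and saline pools did not overlap in either genotype on this probe set. The call was lost with the Gapdh difference as a covariate (-0.26, adjusted p = 0.245) and with the replicate block (-0.28, adjusted p = 0.0522). The other tested probe set of Slc12a2, 1448780_at, did not share it. It read 5.87, 5.71 and 5.33 in Fyn-null ethanol pools, against 5.73, 5.28 and 5.62 in Fyn-null saline pools, which overlapped. In control mice it was higher in every ethanol pool, at 6.57, 5.92 and 5.95 after ethanol, against 5.79, 5.63 and 5.85 after saline. Its difference over both genotypes was 0.24 (SE 0.13, adjusted p = 0.291). Slc12a5, the chloride exporter KCC2 of mature neurons, had an interval from -0.14 to 0.08.

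Some markers of other cell types also moved with ethanol over both genotypes, where 6.69% of all genes were called. Of 4 endothelial markers 3 were called lower over both genotypes, Slco1a4 at -0.57 (adjusted p = 0.000259), Cldn5 at -0.64 (adjusted p = 0.000312) and Flt1 at -0.41 (adjusted p = 0.00164). Pecam1 was not called (-0.08, adjusted p = 0.626). The mean level of the 4 was 7.19 to 7.34 in Fyn-null ethanol pools, against 7.60 to 7.72 in Fyn-null saline pools, and 7.00 to 7.19 in control ethanol pools, against 7.47 to 7.68 in control saline pools. Of 10 interneuron markers 1 was called lower (Ndnf, -0.50, adjusted p = 0.00641), and of 4 measured microglial markers 1 (Aif1, -0.44, adjusted p = 0.00435). None of the measured markers of pyramidal neurons, astrocytes, oligodendrocytes and thalamus was called. Of 6 striatal markers above the filter 1 was called higher (Ppp1r1b, 0.21, adjusted p = 0.0316), while the list was 3 above and 3 below 0 with a median of -0.054. Penk was at -0.27 (adjusted p = 0.063), Drd1 at -0.18 (adjusted p = 0.239) and Tac1 at -0.12 (adjusted p = 0.244). The part of these in the values of Gabrb2 1450319_at, Gabrg3 and Slc12a2 was not tested.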

How the data were processed

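The deposited values were log2 probe set signals that the authors made with RMA in the affy package (versions not given in the sources used here), from 12 Affymetrix whole-genome mouse arrays, each of a pool of 3 mice. No genome build is named. S-scores and SAM, the methods of the study, were not run here, since S-scores need probe-level intensities. Without 64 control probe sets and the dimmest 45% of the other 45037 by mean, 24770 were tested. Symbols came from the platform annotation, in which 34958 probe sets have 1 symbol, 932 several and 9211 none. Promoters came from RefSeq (GRCm38.p6), which has no entry for Gabrd in the table used.

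Fits were made in R 4.3.3 with lmFit and eBayes of limma 3.58.1, to the means of the 4 groups, or to genotype and treatment as additive terms for comparisons over both. Adjusted p-values are by Benjamini-Hochberg over all tested probe sets, and intervals are at 95%. The fit was tested on simulated data. The 7 members and the gene lists were chosen with earlier results of these data known. The text names every member and other GABA-A subunit probe set, of each other list the genes called or else the 2 with the smallest p over both genotypes or treatments, and for each member the 3 genes of highest r. Genes of these lists were counted by their leading probe set. Slco1a4, Cldn5, Flt1, Ndnf, Aif1 and Ppp1r1b are called markers, and Slc12a5, Pecam1, Penk, Drd1, Tac1 and the second Gabrg3 and Slc12a2 probe sets were added. Residuals of pools with the same replicate number correlated at -0.43 to 0.32 over 13 pairs, above 0.1 in 3, so the numbers were not treated as pairs. Alternatives were the replicate block, array weights, eBayes with trend and robust, no filter or one of 60%, quantile normalization once more, a fit of only the groups compared, each pool left out, both saline pools in doubt left out and, chosen after the data were seen, the Gapdh 3' to 5' difference as a covariate and array weights estimated gene by gene. The gene-by-gene estimate was added because the default one stopped with a warning before it converged, and it was chosen with the calls of the default known. Of the marker lists, 1 cortical and 1 striatal gene below the filter are not reported here by name. The labels do not say that pools came from separate cohorts, so p-values measure the spread between these pools, and the number of pools limits the precision.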

Additional observations from a re-analysis of the deposited data

How the results depend on the processing

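Of 628 recomputed values of 30 differences, 582 kept their direction and side of the threshold, 24 were no longer called, 18 became called and 4 changed sign. The sign changed with the Gapdh covariate for Gabrb2 1450319_at in control mice (-0.0032) and for Gabra3 1421263_at over both genotypes (-0.04), and without control saline replicate 1 for Gabra2 1443865_at (0.10; range without each pool -0.43 to 0.10) and 1421738_at (0.08; range -0.37 to 0.08) after saline. The cause was not tested. The default array weights stopped before they converged, and the gene-by-gene estimate was added after their calls had been seen.

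Subunit probe sets called for ethanol in Fyn-null mice (1) became 4 with array weights (Gabra5, Gabrb1 1443205_at and, lower, Gabra2 1443865_at were added), 2 with weights estimated gene by gene (Gabra5 was added) and 0 with the replicate block (1450319_at at 0.87, adjusted p = 0.055), without both saline pools in doubt or with the covariate, and 0 to 1 without each pool. In control mice they were 0 to 1 without each pool (1 without control saline replicate 1). For Fyn-null against control after ethanol (0) they were 7 with array weights (3 of Gabra2, 3 of Gabrb2 and 1 of Gabrd), 2 gene by gene, 1 with only the groups compared, 1 without both pools in doubt and 0 to 1 without each pool. Over both genotypes (1) they were 0 with the covariate and 1 to 2 without each pool (2 without control saline replicate 1, which added Gabra3 1421263_at), and over both treatments (0) they were 2 without both pools in doubt and 0 to 1 without each pool. The block changed no other subunit call. Gabrg3 1445846_at, at 0.27 to 0.39 in the settings other than the covariate, was no longer called with no filter (adjusted p = 0.0528), with the block (0.101) or without 7 of the 12 pools, and Slc12a2 with the block (0.0522).

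Over all probe sets, calls for ethanol in Fyn-null mice (99) were 155 with a further quantile normalization, 26 with the block, 2781 with array weights, 1371 gene by gene, 54 without both pools in doubt, 41 with the covariate and 33 to 145 without each pool. In control mice (355) they were 36 with the block, 18 with only the groups compared, 147 without both pools in doubt, 24 with the covariate and 76 to 410 without each pool. Over both genotypes (1686) they were 710 with the block, 110 with the covariate and 770 to 1625 without each pool. For Fyn-null against control after ethanol (0) they were 1 with trend and robust, 3975 with array weights, 1383 gene by gene, 193 with only the groups compared, 260 without both pools in doubt and 0 to 35 without each pool. After saline (0) they were 44 without both pools in doubt. Over both treatments (0) they were 1 with the filter of 60%, 2 with quantile normalization, 6 with array weights by either estimate, 669 without both pools in doubt and 0 to 129 without each pool.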
